A study of Bos taurus with 12 samples.

Results

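The genes of the cytosolic ribosomal proteins were examined in the mammary gland (MG) of dairy cows. They were chosen by name: every gene whose RefSeq symbol is RPL or RPS followed by a number, with an optional suffix A or X, together with RPLP0, RPLP1, RPLP2 and RPSA. Mitochondrial ribosomal proteins, ribosomal protein S6 kinases, gene copies whose names end in L or L1, and pseudogenes were left out. Of 76 such bovine genes, 74 were matched to the arrays, by 243 probes, among 12639 named genes in all. These were 44 genes of the large subunit and 30 of the small subunit, and RPL22 and RPS14 were not analysed here. Each gene is represented by the brightest of its 1 to 8 probes, and the other probes are given where they differ.

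Total RNA (100 ng) of 1 biopsy from each of 12 multiparous Holstein cows was hybridized to one-color Agilent bovine arrays. The cows were at 24 ± 3 days in milk and all had received 50 µg of LPS, the endotoxin of Gram-negative bacteria, in 1 rear gland of the udder 24 h before the biopsy. The 6 CONT cows ate a lactation diet, and the 6 REST cows ate a ration diluted with barley straw (48% of dry matter) for 4 days, with the LPS given on day 3. No gland without LPS is among the arrays, so that REST against CONT measures the effect of the ration in challenged glands only. The biopsies hold all cell types of the gland, and fewer cells of a type and less RNA per cell cannot be told apart in them.

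The cytosolic ribosome is built from a large and a small subunit, each an RNA scaffold covered with small basic proteins. Nearly every protein comes from a gene of its own, and the mRNAs carry a pyrimidine tract at the start (TOP mRNAs) through which mTOR, the kinase that senses amino acids and insulin, sets how much of them is translated. In the lactating gland the ribosomes make the caseins and whey proteins, so that ribosome number is one limit on milk protein output.

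The ribosomal protein mRNAs gave some of the brightest signals on the arrays. A signal is the log2 intensity of a spot minus the log2 of its array's 75th percentile, and brightness is in part a property of the probe. On all 12 arrays every one of the 243 probes was well above background, against 71.8% of the named genes by their brightest probe, and none was saturated. The mean log2 signal of the 74 genes was 4.24 to 8.92 with a median of 7.64, whereas the median of all named genes was -0.72. All 74 lay in the top 5% of named genes. The signals of 72 of the 74 were read from the low-gain scan on every array, as happened for 1.58% of named genes. The brightest were RPLP1 (8.92) and RPLP0 (8.86), proteins of the stalk that recruits the translation factors, followed by the small subunit proteins RPS3A (8.67), RPS3 (8.62) and RPS28 (8.53). Among the dimmest were RPSA (4.24), RPL28 (4.87), RPS9 (5.98) and RPL30 (6.04).

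None of the 74 genes differed between REST and CONT by more than the spread between cows allows to tell. The log2 fold change (FC, REST minus CONT) ran from -0.27 for RPL15 to 0.28 for RPL13, that is, from 0.832-fold to 1.22-fold. No gene passed the Westfall-Young or the Benjamini-Hochberg threshold (limma, adjusted p of 1 and 0.9999 at the lowest), as was the case for 0% of the 12639 named genes. No ribosomal protein gene reached an unadjusted p under 0.05, against 334 named genes (2.64%). In no ribosomal protein gene were the CONT and REST cows fully apart, against 19 named genes (0.15%). The lowest unadjusted p of the family was 0.129, for RPL13.

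These genes had smaller standard errors than the named genes as a whole, of which only 71.8% were well above background on all arrays. The median standard error of the log2 FC was 0.16 over the 74 genes and 0.25 over all named genes. Small standard errors were not particular to the family. Over 18 elongation factors and other TOP mRNAs they ran from 0.13 (NACA) to 0.24 (EEF1D). The 95% interval held 0 for all 74 genes, and for 58 of them it lay within 0.50 of 0 on the log2 scale, a 1.41-fold change either way. The widest bounds were -0.73 for RPL15 and 0.66 for RPL13. The log2 FC was within 0.1 of 0 for 53 genes (71.6%), against 35.7% of named genes, dim ones included.

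**Figure D1:**
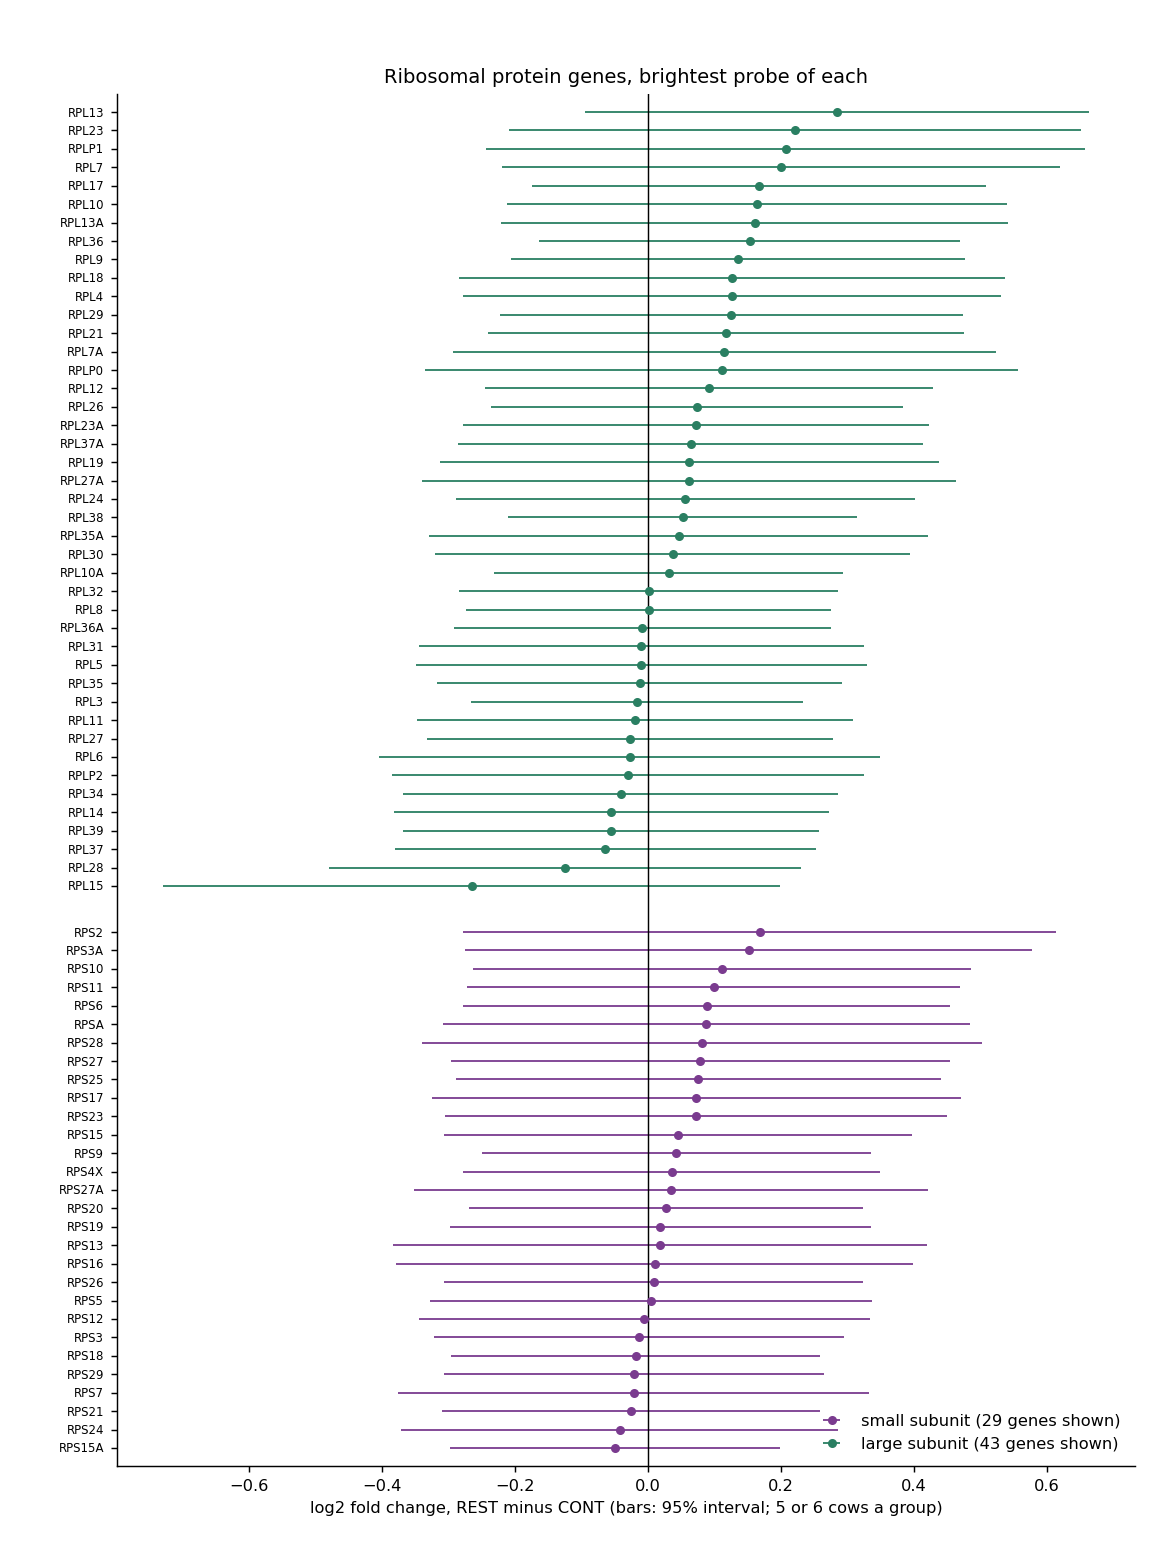
The log2 FC of 72 of the 74 genes (x axis, REST minus CONT; points, brightest probe; bars, 95% interval; 6 cows a group, but 5 in 1 group of RPL9, RPL12, RPL17, RPL36A and RPL37), sorted within the large (green) and small (purple) subunit. Every interval crosses 0, and RPL13 (0.28) and RPL15 (-0.27) are the outermost points.

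No direction of the family is given, because it turned with quantile normalization, normexp and the slide block, also relative to all named genes. After the 75th percentile shift, as in the methods of the study, the median log2 FC was 0.044 and 50 of 74 genes (67.6%) were above 0, against a median of -0.034 and 43.5% above 0 over all named genes. The family's median thus lay 0.078 above that of the named genes. Subtracting each array's median instead moves every gene of an array alike, so that this distance was again 0.078, with medians of -0.013 for the family (33 genes above 0) and -0.091 for all named genes (33.6% above 0). Quantile normalization gave -0.065 with 15 above 0, which is -0.030 relative to the named genes. Background correction by normexp followed by quantile normalization gave -0.14 with 3 above 0 (-0.12 relative to the named genes). With slide as a block, the 75th percentile values had a median of -0.045 with 16 genes above 0 (-0.057 relative to the named genes). Taking the steadiest probe of each gene gave -0.0076 with 35 above 0 (0.017 relative to the named genes).

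**Figure D2:**
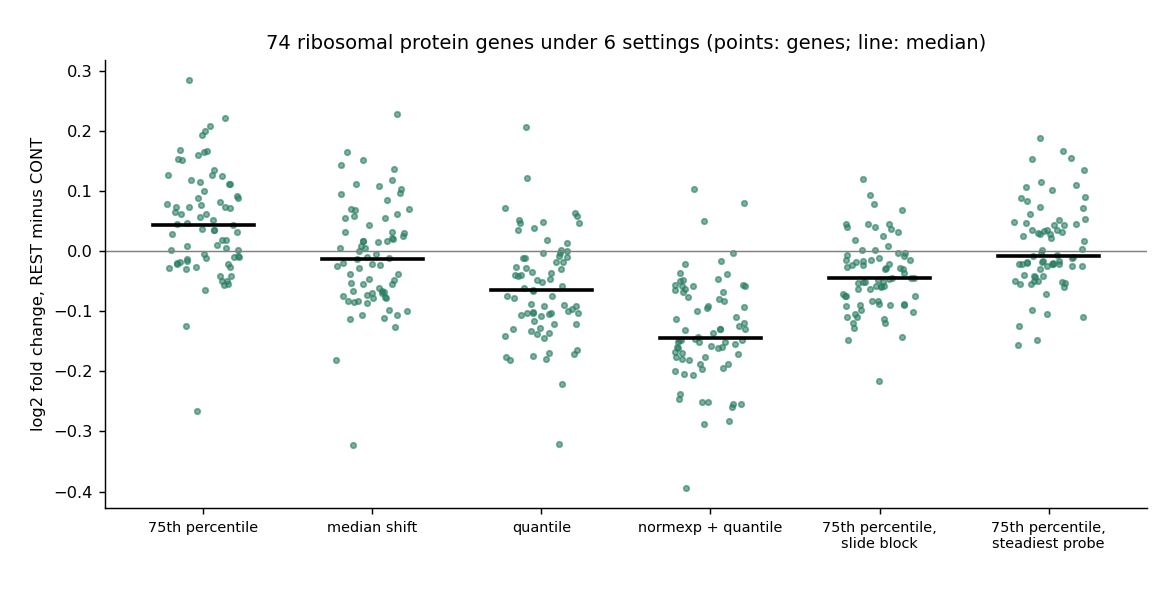
The log2 FC of the 74 genes (y axis, REST minus CONT; points) under 6 ways of scaling or fitting, with the median as a bar. The cloud lies around 0.044 with the 75th percentile shift and around -0.14 with normexp and quantile normalization.

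After normexp and quantile normalization, 10 of the 74 genes had an unadjusted p under 0.05, all lower in REST, against 327 of 12639 named genes (2.59%). They were RPS10, RPS12, RPS18, RPS24, RPS29, RPL5, RPL11, RPL14, RPL27A and RPL35. Their log2 FC under that setting was between -0.29 (RPS18) and -0.15 (RPL5), whereas with the 75th percentile shift it was between -0.055 (RPL14) and 0.11 (RPS10). RPL5 and RPL11, which also bind the p53 regulator MDM2 when ribosome assembly fails, were at -0.15 (standard error 0.062) and -0.20 (standard error 0.077) with normexp and quantile normalization, at -0.097 and -0.091 with quantile normalization alone, and at -0.0100 and -0.020 with the 75th percentile shift. None of the 10 passed an adjusted threshold there (limma, Benjamini-Hochberg 0.9997).

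The cows differed from each other more than the groups did. The median log2 signal over the 74 genes was 7.46, 7.58 and 7.85 (lowest, median and highest) in CONT and 7.32, 7.72 and 7.92 in REST. The lowest cow of all (REST replicate 1) and the highest (REST replicate 2) were both restricted. The array of REST replicate 2 had the lowest 75th percentile intensity of the 12 (387), and that of REST replicate 1 was among the highest (1082). Under quantile normalization the same medians narrowed to 7.60 to 7.74 in CONT and 7.56 to 7.71 in REST. The part of array brightness in the spread between cows was not tested.

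**Figure D3:**
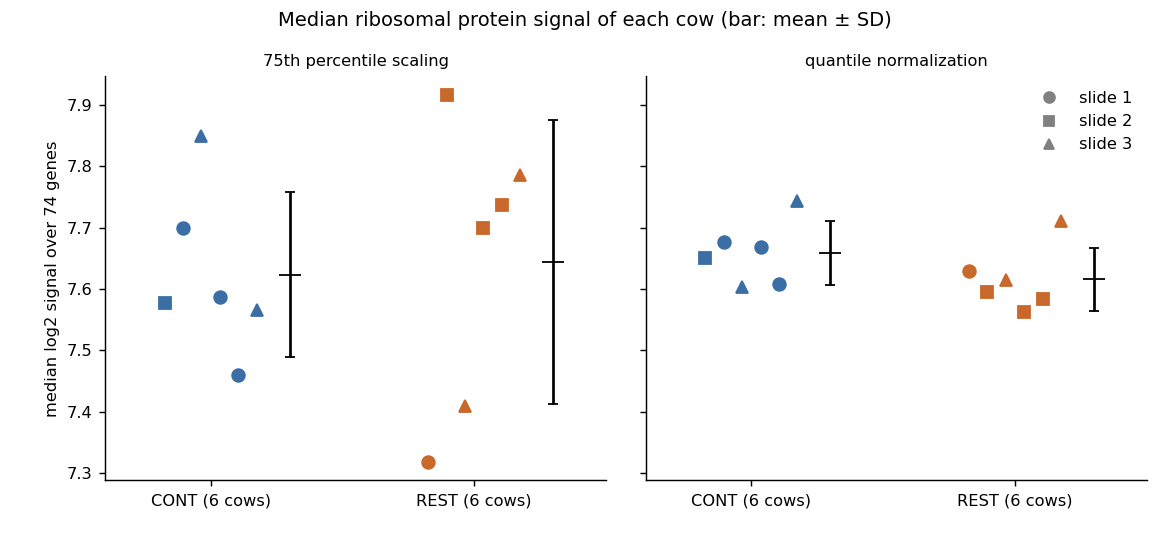
Median log2 signal over the 74 genes in each cow (y axis) after the 75th percentile shift (left) and quantile normalization (right), with the slide as the symbol and the mean ± SD of each group (n = 6) beside it. On the left REST spans 7.32 to 7.92 and encloses CONT, and on the right both groups lie between 7.56 and 7.74.

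The REST cows were the more spread with the 75th percentile shift, but not with quantile normalization. The median SD of a gene was 0.18 in CONT and 0.26 in REST (n = 6 each), and 60 of 74 genes (81.1%) had the larger SD in REST, against 45.7% of named genes. The count was 51 to 65 with each cow left out in turn. It was 23 after quantile normalization and 30 after normexp and quantile normalization.

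The slides, which carried 4 arrays each in unequal numbers of the groups (3 CONT and 1 REST on slide 1, 1 and 3 on slide 2, 2 and 2 on slide 3), gave opposite signs. Within slide 1 the median difference over the 74 genes was -0.22, with 5 genes higher in REST and 2 without a value. Within slide 2 it was 0.24, with 68 higher in REST. Within slide 3, the balanced one, it was -0.13, with 9 higher in REST. The medians over all named genes within the slides were -0.014, 0.066 and 0.0079.

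The ribosomal protein genes varied together from cow to cow. With the group means taken out, the median Pearson correlation over the 2701 pairs of genes was 0.735, and 96.2% of pairs were above 0. All points share the array and its scaling. Over the 12 cows, 50 of the 74 genes correlated above 0.8 with the median of the other members. RPL15 was the only one below 0 (-0.22), and RPL3 (0.13), RPS21 (0.14) and RPSA (0.31) were next. The RPL15 probe used had a single low value, 6.18 in REST replicate 2 against 7.07 to 7.50 in the other REST cows. That cow had the highest family median, and on the dimmer RPL15 probes it was not the lowest of its group.

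The 10 genes outside the family that followed its per-cow median most closely began with FAU (r = 0.964 over 12 cows) and EEF1D (0.946). FAU encodes the small subunit protein S30, made as a fusion with a ubiquitin-like protein, and its symbol kept it out of the name rule. EEF1D is a subunit of the exchange factor of elongation factor 1. Also among them were RASGEF1B, CEP95, PDK2, LRRC1, GABARAPL2, ARHGEF26 and APAF1 (0.913 to 0.932). Of 8930 genes searched, 169 had r above 0.8. None of these 9 had an unadjusted p under 0.05 between the groups, and FAU had a log2 FC of 0.024 (limma, unadjusted p = 0.887).

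Both subunits lay around 0. Of the 44 large subunit genes 28 were above 0, with a median log2 FC of 0.054, and of the 30 small subunit genes 22 were above 0, with a median of 0.035. The lowest small subunit gene was RPS15A (-0.050), whereas the large subunit genes ran from -0.27 to 0.28.

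RPS2, RPS15, RPS27A, RPL10 and RPL37A come first because the study names them, so that their choice is not independent of these cows. It lists RPL37A among its changed mRNAs and the others among its changed proteins, each as lower in REST. The values given here are of mRNA only. RPS2, at the entry of the mRNA channel, had log2 signals of 8.17, 8.33 and 8.90 (lowest, median, highest) in CONT and 7.93, 8.64 and 9.03 in REST. This amounts to a difference of 0.17 on the log2 scale (standard error 0.21, limma unadjusted p = 0.429). The groups overlapped almost fully, and both the lowest and the highest cow were in REST. The other 4 probes of RPS2 had log2 FC of -0.050 to 0.073. With quantile normalization its log2 FC was -0.018.

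RPS15, a protein of the small subunit head near the decoding site, spanned 7.28, 7.55 and 7.72 in CONT and 7.21, 7.68 and 7.87 in REST. The means differed by 0.045 on the log2 scale (standard error 0.16, limma unadjusted p = 0.788) and by -0.0050 with its other probe. RPS27A, which is made as a fusion with ubiquitin and so supplies both, has 1 probe on the array. Its signals were 8.18, 8.34 and 8.74 in CONT and 7.998, 8.52 and 8.93 in REST. The change was 0.034 (standard error 0.18, limma unadjusted p = 0.851), and it was -0.18 after quantile normalization. In both genes the REST range enclosed the CONT range.

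RPL10, which is added late to the large subunit and is needed for the subunits to join, was measured by 5 probes. The brightest gave 7.87, 7.99 and 8.45 in CONT and 7.81, 8.32 and 8.57 in REST. Of the 6 REST cows, 4 were above the CONT mean, and the log2 FC was 0.16 (standard error 0.17, limma unadjusted p = 0.362). The log2 FC was above 0 with all 5 probes, at 0.071 to 0.21, and it was -0.022 with normexp and quantile normalization.

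RPL37A, a zinc-binding protein of the large subunit, gave different answers by probe. The brightest probe had log2 signals of 6.86, 7.08 and 7.44 in CONT and 6.87, 7.29 and 7.45 in REST, a change of 0.064 (standard error 0.16, limma unadjusted p = 0.697). The middle probe, of similar brightness (mean 7.04), gave 0.071 (standard error 0.15). On these probes the groups overlapped over most of their range.

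The third RPL37A probe was far dimmer, with a mean log2 signal of 0.89, though still well above background on all 12 arrays. Its values were 0.97, 1.20 and 1.76 in CONT and 0.11, 0.49 and 0.78 in REST, so that every REST cow lay below every CONT cow. The log2 FC was -0.83 (standard error 0.20, a 0.564-fold level), and the limma unadjusted p was 0.0014. Within slides 1, 2 and 3 the differences, whose sign follows from the separation of the groups, were -1.09, -0.44 and -0.87. It did not pass the adjusted thresholds (Westfall-Young 1, Benjamini-Hochberg 0.9999). This was 1 of 243 ribosomal protein probes with an unadjusted p under 0.05, against 1143 of 43653 probes (2.62%), and likewise the 1 with groups apart, against 56 of all probes (0.128%). The transcripts that each probe detects were not analysed here.

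**Figure D4:**
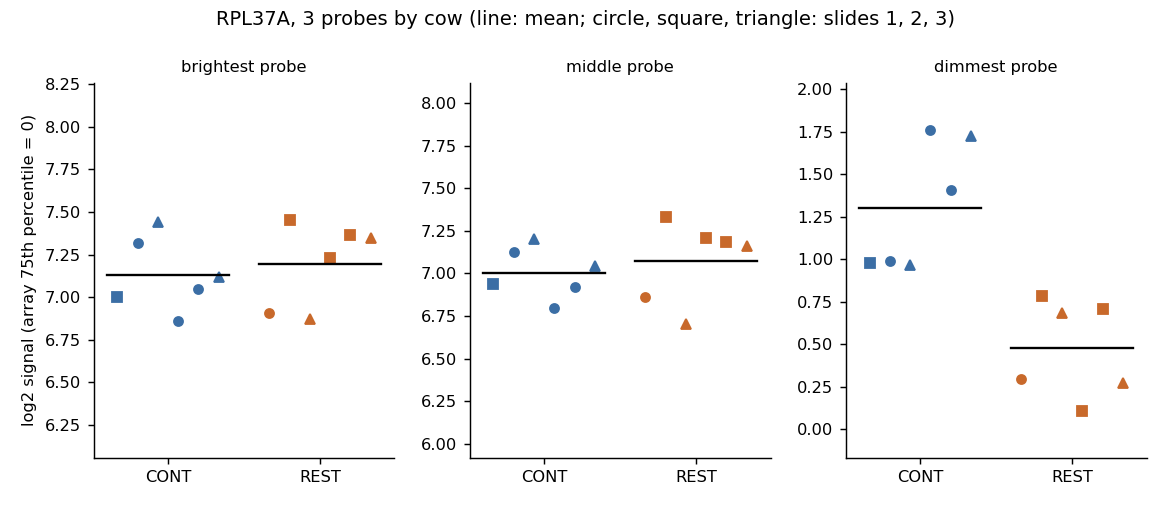
Log2 signal of the 3 RPL37A probes by cow (y axes of equal span; symbols, slides; lines, group means; n = 6 cows a group). CONT and REST overlap on the brightest and middle probes and are apart on the dimmest, where REST lies at 0.11 to 0.78 and CONT at 0.97 to 1.76.

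The stalk proteins and RPSA overlapped between the groups, with unadjusted p above 0.05 in limma. RPLP0, the base of the stalk, was at 8.50, 8.77 and 9.23 in CONT and 8.45, 8.95 and 9.45 in REST, with a log2 FC of 0.11 (standard error 0.21). RPLP1 was at 8.40, 8.82 and 9.36 in CONT and 8.56, 8.98 and 9.57 in REST, with a log2 FC of 0.21 (standard error 0.21). RPLP2, its partner in the stalk, was at 7.63, 7.86 and 7.9995 in CONT and 7.45, 7.75 and 8.24 in REST, which is a change of -0.030 (standard error 0.16). The sign for RPLP0 and RPLP1 turned with quantile normalization, to -0.17 and -0.090. RPSA, a small subunit protein also known as the laminin receptor precursor, was at 3.56, 4.30 and 4.47 in CONT and 3.88, 4.36 and 4.52 in REST, which is a change of 0.088 (standard error 0.18).

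At the upper end were RPL13, RPL23, RPLP1, RPL7 and RPS2. RPL13 had 6.995, 7.17 and 7.62 in CONT and 7.10, 7.61 and 7.80 in REST, with 5 of 6 REST cows above the CONT mean. Its log2 FC was 0.28 (standard error 0.17, limma unadjusted p = 0.129), and it stayed above 0 under the scalings tried, at 0.21 with quantile and 0.10 with normexp and quantile normalization. Its other 4 probes gave -0.039 to 0.10. RPL23, a large subunit protein that also binds MDM2, had a log2 FC of 0.22 (standard error 0.20), with 7.99, 8.17 and 8.80 in CONT and 7.97, 8.52 and 8.94 in REST. RPL7 was at 0.20 (standard error 0.19). For these genes too the 2 groups overlapped.

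At the lower end were RPL15, RPL28, RPL37, RPL39, RPL14 and RPS15A. RPL15, a large subunit protein, had 7.20, 7.41 and 7.55 in CONT and 6.18, 7.24 and 7.50 in REST. Its log2 FC of -0.27 (standard error 0.21, limma unadjusted p = 0.238) rested largely on REST replicate 2 and was -0.078 without that cow. On the 7 dimmer probes of RPL15 that cow was not the lowest of its group, and the log2 FC of all 8 probes was below 0, at -0.27 to -0.049, with no p under 0.05. RPL28 had 4.76, 4.87 and 5.21 in CONT and 4.31, 4.82 and 5.10 in REST, which is a change of -0.13 (standard error 0.16), and of -0.025 without REST replicate 3. The other 4 had log2 FC of -0.064 to -0.050. RPL39, which lines the exit tunnel, had a log2 FC of -0.056 (standard error 0.14). It was -0.0027 without CONT replicate 6. In the fit of RPL37 (-0.064, standard error 0.14) 1 CONT cow was left out because of an outlier spot, and with the spot kept the log2 FC was 0.062.

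**Figure D5:**
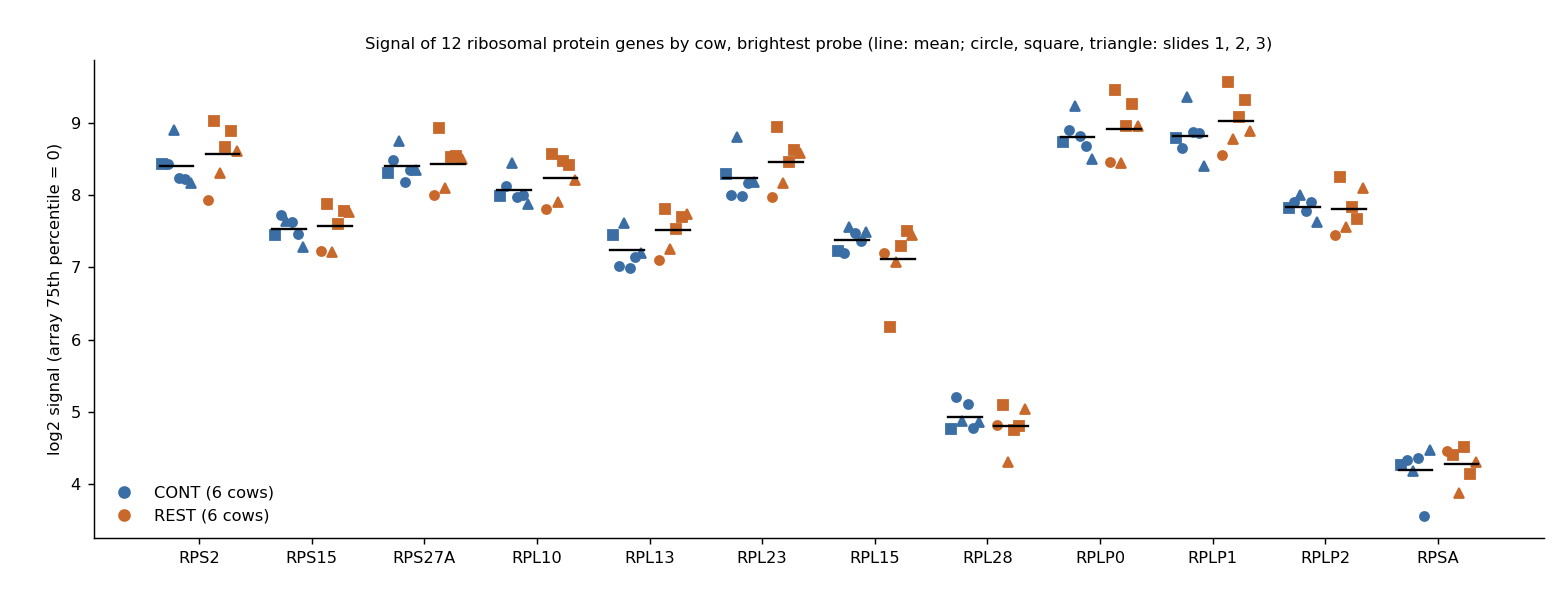
Log2 signal of the brightest probe of 12 ribosomal protein genes in each cow (y axis; blue, CONT; orange, REST; symbols, slides; lines, group means; n = 6 cows a group). The groups overlap in all 12 genes, and the single low RPL15 value (6.18) is REST replicate 2. Levels of different genes also differ by probe.

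Of the 74 genes 66 had several probes, whose log2 FC differed by 0.095 at the median. The range was widest for RPL37A (0.90), followed by RPS23 (0.34), RPL13 (0.32), RPL7 (0.28) and RPS10 (0.27). RPS23, a protein of the decoding centre, had a dim probe (mean log2 signal 0.036) at -0.27 beside bright ones at 0.072 and 0.028. RPS10 likewise ran from 0.11 on its brightest to -0.16 on its dimmest probe. In 35 genes probes of both signs were found. Without the dim RPL37A probe, the other 242 probes had log2 FC of -0.27 to 0.28.

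Genes that work with the ribosomal proteins were compared from lists by function, and here too no gene passed an adjusted threshold. Of 31 genes of ribosome biogenesis, 29 were below 0, and the list had a median of -0.22, against -0.034 and 56.5% below 0 over all named genes. In limma 1 of the 31 had an unadjusted p under 0.05, against 2.64% of named genes. This was BYSL, which acts in small subunit maturation and was well above background in 6 CONT but only 3 REST cows. FBL, the methyltransferase of ribosomal RNA, was at -0.37 (standard error 0.19) and NPM1, a nucleolar chaperone, at -0.33 (standard error 0.19). The median of this list kept its sign with quantile normalization (-0.21), normexp and quantile normalization (-0.16), the slide block (-0.15) and each cow left out (-0.31 to -0.13, the latter without REST replicate 2).

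Of 18 elongation factors and other TOP mRNAs, 13 were below 0, against 56.5% of all named genes, and none had an unadjusted p under 0.05. Their median was -0.075, and it was -0.0078 without REST replicate 3. EEF1A1, which brings aminoacyl-tRNA to the ribosome, was at 0.17 (standard error 0.17) and EEF2, the translocase, at 0.18 (standard error 0.20). PABPC1, the poly(A) binding protein, was at -0.12 (standard error 0.15). Of 11 genes linked to the ribosome by sequence or function but outside the name rule, 5 were above 0 and 6 below (56.5% of all named genes were below). The number below was 5 to 9 with 1 cow left out, 8 with quantile normalization, 9 with the slide block and 10 with normexp and quantile normalization. Only 8 of the 11 were well above background on all arrays. RPL3L (-0.84), RACK1 (-0.70) and RPL10L (-0.53) were not. All of these are among the 6 below 0, so that the counts rest partly on probes near background.

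Markers of the mammary epithelium were present in every biopsy. Milk protein genes (5 matched) were all detected in each cow, with a median log2 FC of 0.35 (5 of 5 above 0) with the 75th percentile shift, 0.20 without REST replicate 2, 0.14 with the slide block, 0.052 with quantile normalization and -0.033 (4 of 5 below 0) with normexp and quantile normalization. Their summed log2 signal was 10.5 to 12.1 in CONT and 11.001 to 12.5 in REST. Of 6 fibroblast genes 5 were below 0, and LUM, COL1A1 and COL1A2 had an unadjusted p under 0.05 in limma, which 2.64% of named genes had. The fibroblast median was -0.63, and -0.35 with the slide block, and the summed log2 signal was 5.63 to 6.06 in CONT and 4.52 to 6.12 in REST. All 6 endothelial genes were above 0, and VWF was the 1 with an unadjusted p under 0.05. The endothelial median was 0.43, and 0.10 without CONT replicate 6, with sums of 1.67 to 3.56 in CONT and 3.16 to 3.95 in REST.

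Leaving out 1 cow turned the sign of the median log2 FC of 6 further marker lists, so that no direction is given for them. The range was -0.056 to 0.18 for 7 luminal, -0.30 to 0.097 for 6 myoepithelial, -0.17 to 0.68 for 6 neutrophil, -0.18 to 0.32 for 7 macrophage, -0.22 to 0.060 for 8 T cell and -0.064 to 0.22 for 5 B cell genes. The lowest or highest of these came without CONT replicate 5 or 6 or REST replicate 2, 3 or 6. Of the 8 T cell genes 5 were below 0 with the 75th percentile shift. CD3D, at a log2 FC of 0.60, was the 1 of them with an unadjusted limma p under 0.05 (0.0400), against 2.64% of named genes. MS4A1, a B cell gene that was well above background in 0 CONT and 4 REST cows, had an unadjusted limma p of 0.0249, and neither gene passed the adjustment over all probes. Of 5 adipocyte genes only 1 was well above background on all arrays, FABP4 (log2 FC 1.20, standard error 0.62). With the 75th percentile shift 4 of the 5 were above 0 and LEP was below (-1.02). The median of the 5 was 0.017 with normexp and quantile normalization, 0.19 with the 75th percentile shift and 0.32 with the slide block. The part of the cell types in the ribosomal protein signals was not tested.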

How the data were processed

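The deposited spot intensity values are those the authors obtained with Agilent Feature Extraction (version 11.0.1.1), background-corrected and not normalized between arrays. The deposited value table held the same intensities (largest difference 0). From these, control spots and outlier spots were left out, log2 values were taken relative to the array's 75th percentile, as in the study's methods, and spots of a probe were averaged. Of 43653 probes, 26832 were named by matching RefSeq accessions to a bovine RefSeq table of another assembly, so that no positions or sequences are given. Of the 243 probes of the family, 12 lacked a value on at least 1 array, and 5 of these stand for a gene.

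REST and CONT (6 arrays each) were compared with limma 3.58.1 in R 4.3.3 (lmFit, eBayes, two-sided) over all probes, with Westfall-Young adjustment from 100 splits of the cows and Benjamini-Hochberg beside it. Figures were drawn with matplotlib. The procedure was tested on simulated data. Replicate numbers follow accession order and are only names, and the number of arrays limits the precision.

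The genes, lists and alternatives were chosen with earlier results of these data known. The genes named are those that the study names, the 5 brightest and 5 dimmest, the 6 highest and 6 lowest log2 FC, any with groups apart or an unadjusted p under 0.05 (none), the stalk proteins and RPSA, and the 5 with the widest range over probes. Some genes that these rules select are not reported here. The 10 genes with p under 0.05 after normexp, RPL3 and RPS21 for their low correlation, and members of other lists, were named after their values were seen. The 10 genes most like the family were ranked by Pearson correlation with its median, among genes well above background on all arrays. Alternatives were median shift, quantile normalization, normexp (offset 50) with quantile normalization, the value table, a filter on dim probes, outlier spots kept, saturated probes left out, slide as a block, the mean over probes, the steadiest probe, an intensity trend, array weights and each cow left out.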

Additional observations from a re-analysis of the deposited data

Results flagged for a closer look

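In 6 of 50 groups examined (25 named genes, CONT and REST, 6 cows each except 5 CONT cows for RPL37), 1 cow stood apart from the others by Dixon's test at 95%. Chance flags about 1 in 20 independent groups, but these are the same 12 cows seen through genes that vary together, so that the number of flags is not read against chance. CONT replicate 3 stood above the other CONT cows in 3 small subunit genes. It was at a log2 signal of 8.92 in RPS28 (the others at 8.36 to 8.44), 8.90 in RPS2 (8.17 to 8.43) and 8.89 in RPS10 (8.21 to 8.46). The same cow had the highest median over the 74 genes in CONT (7.85).

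REST replicate 2 stood below the other REST cows in RPL15, at 6.18 against 7.07 to 7.50, although it had the highest median over the 74 genes of all 12 cows (7.92). CONT replicate 4 was low in RPL30, at 5.43 against 5.97 to 6.29. CONT replicate 5 was low in RPSA, at 3.56 against 4.19 to 4.47.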

How the results depend on the processing

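No ribosomal protein gene passed an adjusted threshold and none had groups apart under any alternative run. The count at an unadjusted p under 0.05 was 0 in all of them except normexp with quantile normalization (10, lower in REST). The number of genes higher in REST fell from 50 to 16 with the slide block, 15 with quantile normalization and 3 with normexp and quantile normalization, and was 36 to 65 with 1 cow left out. With the median shift, which moves all genes of an array alike, it was 33, while the share over all named genes fell from 43.5% to 33.6%. The median log2 FC was -0.0066 to 0.098 with 1 cow left out, lowest without REST replicate 2. The count with the larger SD in REST, an alternative set added after the data were seen, fell from 60 to 23 with quantile normalization and 30 with normexp and quantile normalization. The cause of these shifts was not tested.

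Single genes changed sign, among them RPL23, RPLP1, RPL7, RPS2 and RPL10 from the upper end. With quantile normalization the log2 FC was -0.029 for RPL30, -0.012 for RPL37A, -0.17 for RPLP0, -0.090 for RPLP1, -0.088 for RPS10, -0.034 for RPS15, -0.018 for RPS2, -0.0076 for RPS23, -0.18 for RPS27A, -0.12 for RPS28, -0.14 for RPS3A and -0.026 for RPS9. With normexp and quantile normalization it was -0.022 for RPL10, -0.0029 for RPL23, -0.058 for RPL30, -0.083 for RPL37A, -0.20 for RPLP0, -0.15 for RPLP1, -0.24 for RPS10, -0.068 for RPS15, -0.15 for RPS2, -0.057 for RPS23, -0.18 for RPS27A, -0.25 for RPS28, -0.19 for RPS3A and -0.016 for RPS9. With the median shift, by construction of that shift, it was -0.020 for RPL30, -0.012 for RPS15, -0.022 for RPS27A and -0.014 for RPS9. With the slide block it was -0.026 for RPL30, -0.015 for RPL37A, -0.023 for RPLP0, -0.018 for RPS10, -0.012 for RPS15, -0.016 for RPS2, -0.052 for RPS23, -0.089 for RPS27A, -0.074 for RPS28 and -0.0079 for RPS3A. With the steadiest probe it was -0.029 for RPL30, -0.021 for RPL7, -0.039 for RPLP0, 0.049 for RPLP2, -0.16 for RPS10 and -0.050 for RPS2. With the mean over probes it was -0.23 for RPL37A, 0.0069 for RPLP2, -0.0094 for RPS10 and -0.057 for RPS23. With array weights it was -0.030 for RPL30 and 0.020 for RPS3, and with outlier spots kept it was 0.062 for RPL37.

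With 1 cow left out, 10 of the 25 named genes changed sign, with log2 FC of -0.10 to 0.011 (RPL14), -0.080 to 0.093 (RPL30), -0.12 to 0.042 (RPLP2), -0.014 to 0.12 (RPS15), -0.013 to 0.15 (RPS23), -0.065 to 0.12 (RPS27A), -0.0070 to 0.22 (RPS28), -0.065 to 0.042 (RPS3), -0.00080 to 0.089 (RPS9) and -0.040 to 0.17 (RPSA). No paired analysis was made, because the CONT and REST cows were different animals. All 243 probes of the family were well above background on all 12 arrays. What limits the comparison was not tested.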

Other observations

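The 75 mitochondrial ribosomal proteins, which build the ribosome of the mitochondrion, were well above background on all arrays. A total of 63 were below 0, against 56.5% of all named genes. The median log2 FC was -0.13, and it was -0.11 with quantile normalization, -0.12 with normexp and quantile normalization and -0.12 with the slide block. With each cow left out it was -0.16 to -0.098. MRPS30 (-0.39, limma unadjusted p = 0.0345) and MRPS35 (-0.34, limma unadjusted p = 0.0172) were the 2 with p under 0.05, a share near the 2.64% of all named genes, and no gene passed an adjusted threshold.

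Of 17 translation initiation factors 14 were below 0, with a median log2 FC of -0.12 (-0.072 without REST replicate 2) and none at p under 0.05, against 56.5% below 0 and 2.64% at p under 0.05 over all named genes. EIF4E, the cap-binding protein, was at -0.31 (standard error 0.15, limma unadjusted p = 0.0579). Of 7 genes that control ribosomal protein synthesis 5 were above 0, against 43.5% of all named genes. The median was 0.15, and 0.069 without REST replicate 2. The list holds both activators and inhibitors, so that a shared sign has no single meaning. Only 5 of the 7 were well above background on all arrays. DEPTOR, above 0, and RPTOR, below 0, were not. EIF4EBP1, the inhibitor of EIF4E, was at 0.24 (standard error 0.37) and MYC at 0.20 (standard error 0.40). RHEB, the activator of mTOR, was at -0.26 (standard error 0.15).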
